A study of Sus scrofa with 8 samples.

Results

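The genes described here are NPY and TAC3, 2 of the 21301 genes counted in single cells of the trunk of pig embryos. They were picked because of the size of their change over embryonic stages, NPY in cells with SOX10 and TAC3 in cells rich in keratins, so those stage values are given as a description and were not tested. The 8 libraries came from somites at embryonic day 16 (E16), E18 and E21 and from myotomes at E28. Each stage had 1 library from Tibetan embryos (ZZ) and 1 from Duroc by Tibetan crossbred embryos (DZ), and each library was a pool of 5 embryos. Where 2 values are given for a stage, ZZ comes first. Stage, tissue from E21 to E28 and the sow cannot be told apart within a breed, and the p-values below measure only the spread between these libraries.

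NPY encodes neuropeptide Y, a peptide co-transmitter of sympathetic neurons and many brain neurons that signals through G protein-coupled receptors such as NPY1R and NPY2R. TAC3 encodes the precursor of neurokinin B, a tachykinin that acts mainly through TACR3, and is best known from the hypothalamic neurons that drive reproductive hormone release and from the placenta. Both peptides are cut from a larger precursor at paired basic residues after a glycine that becomes the C-terminal amide. SOX10 marks the neural crest and the glial precursors and melanoblasts that derive from it, while KRT8 and KRT18 are the keratins of simple epithelia.

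The sequences that make the peptides are shown to identify the genes. The UMIs came from a 3' kit and Ensembl genes, so these codons do not show which transcripts were counted. In RefSeq on Sscrofa11.1, NPY lies on the minus strand of chromosome 18 at 47985796 to 47993726, with 4 exons and 3 coding exons that encode 97 residues. TAC3 lies on the minus strand of chromosome 5 at 22324927 to 22336464, with 7 exons, 5 coding exons and 126 residues. Neither gene overlapped another annotated gene. The codons of the mature peptide and the cut site are given 5′ to 3′ on the coding strand, and the capitals mark the codons of the glycine, lysine and arginine at which the peptide is amidated and cut, a motif found 1 time in each precursor. With the 3 codons of the cut site, the NPY peptide of 36 residues (29 to 64) is split between exon 2 (chr18:47992480-47992583) and exon 3 (chr18:47988131-47988143), and the neurokinin B peptide of 10 residues (86 to 95) lies in exon 5 of TAC3 (chr5:22328016-22328054).
NPY: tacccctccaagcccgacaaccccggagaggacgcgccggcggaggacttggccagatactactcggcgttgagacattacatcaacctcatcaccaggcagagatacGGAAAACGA
TAC3: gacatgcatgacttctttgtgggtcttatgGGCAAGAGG

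After filtering, 74147 cells remained, with 5436 to 10956 cells and 39852689 to 57568895 unique molecular identifiers (UMIs) per library and a median of 3405 to 6160.5 UMIs per cell. E16-ZZ stood apart, since 39.16% of its barcodes exceeded the mitochondrial limit against 1.05% to 9.15% in the others. Of the distinct barcode sequences, 1001 of 89679 (1.12%) occurred in more than 1 library. Cells were sorted into groups by marker genes, called gates, and levels are UMIs of the gene per 1000000 UMIs of all genes in the summed cells (CPM). Intervals in the plots are exact 95% Poisson intervals and cover counting error only.

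NPY was low in whole libraries at E16 and E18 and higher at E21. Its level over all cells was 7.75 and 33.5 CPM at E16 and 13.4 and 67.2 CPM at E18. The 2 libraries of E21 had 210 and 119 CPM, and those of E28 30.8 and 50.5 CPM. E21 had the highest levels in both breeds, and E28 overlapped the earlier stages. For TAC3 the corresponding levels were 83.5 and 167.1 CPM at E16, 25.6 and 15.7 CPM at E18, 2.63 and 2.55 CPM at E21 and 4.42 and 2.58 CPM at E28. All E16 and E18 libraries lay above all later ones. A change over all cells of a library cannot be told apart from a change in how many cells of each kind it held.

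In SOX10+ cells, NPY was almost absent up to E18 and abundant from E21. The gate held 106 and 186 cells at E16, 281 and 620 cells at E18, 460 and 271 cells at E21 and 211 and 231 cells at E28. At E16 the sums held 1 NPY UMI in ZZ and 7 in DZ, and at E18 they held 5 and 49. At E21 they held 1602 and 1183, and at E28 579 and 1203. The early and late libraries did not overlap, in either breed. As CPM the level was 1.07 and 5.11 at E16 and 2.21 and 11.3 at E18, with a mean of 4.92 ± 4.57 (SD, n = 4). It was 649 and 707 CPM at E21 and 510 and 1189 CPM at E28, with a mean of 764 ± 295 (SD, n = 4). The step lay between E18 and E21, 62.7-fold in DZ. No fold is given for ZZ, since its E18 level was within the range of erythroid cells (at most 4.13 CPM). From E21 to E28 it went down 1.27-fold in ZZ and up 1.68-fold in DZ, so the breeds differed in direction over the last interval. These are the values the gene was chosen by.

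The difference lay in how many cells carried NPY as well as in the sum. A UMI of NPY was found in 0.943% and 1.61% of SOX10+ cells at E16, 1.78% and 5.00% at E18, 53.5% and 55.7% at E21, then 28.0% and 46.3% at E28. Erythroid cells, which should lack the gene, had shares of 0% to 4.55% (median of 5256 to 13885 UMIs per cell against 3916 to 7989 in SOX10+ cells). The early shares were thus at or near those of erythroid cells, and the late ones far above them. By level, SOX10+ cells of E18-DZ (11.3 CPM) lay above the highest erythroid value (4.13 CPM). Whether free RNA gave the UMIs of erythroid cells was not tested. With every cell thinned to 2000 UMIs, the SOX10+ shares were 0% and 0.562% at E16, 0.370% and 2.79% at E18, 42.3% and 43.8% at E21, then 23.2% and 45.2% at E28. No single cell carried the late sums, since the highest cell held at most 6.04% of a library's NPY UMIs in this gate.

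**Figure D1:**
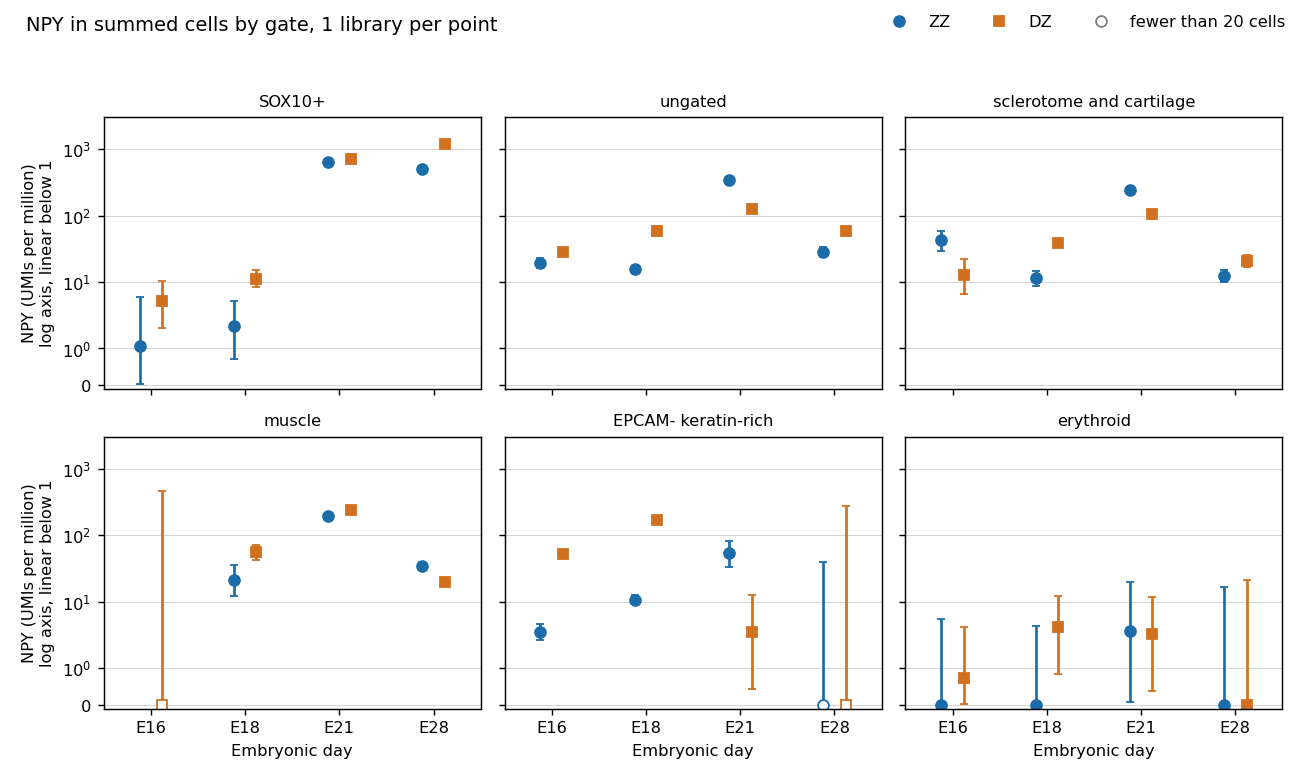
NPY level (CPM, log axis that is linear below 1) against embryonic day in 6 gates, 1 point per library, ZZ as circles and DZ as squares, with exact 95% Poisson intervals and open symbols for fewer than 20 cells. In SOX10+ cells the 4 late libraries sit between 510 and 1189 and the 4 early ones between 1.07 and 11.3, while erythroid cells stay below 5 throughout.

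The identity of the SOX10+ gate was checked against other crest genes. ERBB3, the neuregulin receptor of glial precursors, was at 864 to 1331 CPM in all 8 libraries and SCRG1 was at 368 to 588 CPM. FOXD3, a factor of early crest, had 0 or 1 UMI per library. Another crest marker was detected in 98.5% to 100% of the cells, but the share outside the gate is not given here. The rule of another gate was also met by 42 of 106 and 87 of 186 SOX10+ cells at E16 and 124 of 281 and 249 of 620 at E18. At E21 such cells numbered 152 of 460 and 92 of 271, and at E28 140 of 211 and 112 of 231. Keratin-rich cells made up 16.0% and 19.4% of the gate at E16, 4.98% and 5.97% at E18 and at most 0.217% from E21 on. The 9 measured genes of the list of simple keratins and HAND factors summed to 530 to 2107 CPM in the early and 83.0 to 137 CPM in the late SOX10+ libraries, and EPCAM was at 0 in 3 of the late ones. The part of these cells in the stage values was not tested. Without the SOX10+ cells that met any other gate, NPY was at 0 and 7.66 CPM at E16, 2.50 and 12.9 at E18, 691 and 789 at E21, then 943 and 1706 at E28. The late libraries again lay above the early ones, but in these cells E28 was above E21 in both breeds, so the lower E28-ZZ value above turned direction.

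Other genes of these cells also shifted between the early and late libraries. By edgeR's quasi-likelihood test with Benjamini-Hochberg adjustment and breed as a covariate, 2423 of 8801 genes (27.5%) differed at an adjusted p under 0.05, 1292 higher late (14.7%) and 1131 lower (12.9%). Among crest and Schwann precursor genes, 13 of the 15 in the files were tested, 7 rose and 2 fell. FABP7, a fatty acid binding protein of radial and Schwann precursors, was 171 CPM late against 21.7 early (log2 change 2.87 ± 0.23 SE, adjusted p = 9.96e-06). EDNRB, the endothelin receptor of crest cells, was at 259 against 39.4 CPM (2.59, adjusted p = 2.17e-05). TFAP2B and ETS1 were the 2 that fell.

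Of 11 genes on the list of peptide processing and secretory granules, 7 were tested, 2 rose and none fell, a share near the 27.5% called over all genes. PCSK1N, an inhibitor of a prohormone convertase, was at 110 CPM late and 27.7 early (log2 change 1.84, adjusted p = 0.000101). CPE, the carboxypeptidase that removes the basic residues left after cleavage, was at 37.1 and 10.2 CPM (1.74, adjusted p = 0.00958). Over all tested genes the median log2 change was 0.03.

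Lists of cells that derive from the crest rose in part, against 14.7% of all genes called higher. The 1 tested sympathoadrenal gene did not pass (log2 change -1.35). Among sensory neuron genes, NEUROD1 (14.7 against 0.230 CPM) and ISL1 (14.1 against 3.31) rose, each a transcription factor of placode- or crest-derived neurons. The 3 tested melanoblast genes also rose, namely KIT, the stem cell factor receptor (32.0 against 5.67 CPM), DCT, a melanin enzyme (14.9 against 3.27), and MITF, the master factor of melanocytes (16.9 against 4.82). With 1 library left out at a time, KIT and DCT kept the call in 8 of 8 cases and MITF in 3 of 8. The summed melanoblast list reached 430 CPM in E28-ZZ and 77.1 in E28-DZ against 44.1 and 66.9 at E21 and 11.8 to 24.2 before. KRT8 fell from 713 to 7.07 CPM and KRT18 from 381 to 3.44, as did the epithelial genes EPCAM, CLDN6 and KRT14. These falls ran with the loss of keratin-rich cells from the gate given above, whose part in the other changes was not tested.

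Within the SOX10+ gate, cells with a UMI of NPY were compared with cells without one in the 5 libraries that had 20 of each, E18-DZ and the 4 late ones. This comparison does not use the stage difference. The libraries had 31 to 246 cells with NPY and 120 to 589 without. With the library as a block, 335 of 7062 genes (4.74%) differed, 107 higher (1.52%) and 228 lower (3.23%) with NPY, and 241 of them moved the same way in all 5 libraries. DESeq2 called 172, and the count was 503 for SOX10+ cells that met no other gate. Leaving out E21-ZZ gave 137 calls, leaving out E21-DZ 128 and leaving out E18-DZ 521.

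Among the genes that rose most with NPY, BMP7, a bone morphogenetic protein, was at 130 CPM with and 36.4 CPM without NPY in E18-DZ. The same levels were 193 against 33.7 CPM and 151.1 against 28.2 CPM at E21, and 121 against 27.9 CPM and 144 against 29.7 CPM at E28. Every library had the higher level in the cells with NPY, and none of the 5 values with NPY overlapped any without (log2 difference 2.23 ± 0.16 SE, adjusted p = 1.85e-06). In E18-DZ the share of SOX10+ cells with NPY (5.00%) was close to that of erythroid cells in the same library (3.49%). HEY2, a Notch target, was at 15.0 against 6.51 CPM in E18-DZ, 77.1 against 22.5 CPM and 72.1 against 14.8 CPM at E21, and 92.1 against 0 CPM and 277 against 5.56 CPM at E28. It differed in each library, most at E28 (2.94, adjusted p = 0.00153). KIT was 60.1 against 7.48 CPM in E18-DZ, 28.5 against 2.81 CPM and 56.1 against 1.48 CPM at E21, and 46.1 against 21.6 CPM and 97.3 against 3.71 CPM at E28 (2.90, adjusted p = 0.000782). PAX3, a factor of early crest and melanoblasts, was 200 against 72.4 CPM in E18-DZ and 146 against 5.56 in E28-DZ (2.06, adjusted p = 0.000739). IMPA2, TLCD4, CHODL, GPR37, FAM184B and PSAT1 were the other 6 of the 10 largest rises, with log2 differences of 1.96 to 2.88.

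Among the 5 largest falls, MATN4, a matrilin of cartilage, was at 0 CPM with and 1.93 CPM without NPY in E18-DZ, 11.4 against 130 CPM and 10.0 against 256 CPM at E21, and 164 against 1315 CPM and 95.2 against 949 CPM at E28 (log2 difference -3.50 ± 0.19 SE, adjusted p = 1.7e-07). ACAN, the core protein of aggrecan, fell with NPY by 3.18 on the log2 scale, GPC3 by 2.80, the proteoglycan gene DCN by 2.72 and the chemokine CXCL12 by 2.68. At E28 the fibroblast rule was met by 22.0% of cells with NPY and 65.1% of those without in ZZ, and by 10.3% and 41.9% in DZ. At E21 the shares were 10.2% and 18.2% in ZZ and 11.3% and 15.0% in DZ. The sclerotome and cartilage rule was met at E28 by 15.3% and 43.4% in ZZ and 14.0% and 25.8% in DZ. MATN4, ACAN and DCN fell in the same libraries, and the part of such cells in the comparison was not tested.

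Of 12 tested crest and Schwann precursor genes, 3 passed, against 4.74% of all genes tested. TFAP2B rose (log2 difference 1.54) while NGFR, the low-affinity nerve growth factor receptor (-2.06), and CDH19, a Schwann precursor cadherin (-0.68), fell. Each moved this way in 4 of 5 libraries, and with 1 library left out at a time the calls were kept in 2, 3 and 1 of 5 cases. All 7 tested genes of peptide processing and granules missed the threshold, with a median log2 difference of -0.63 against 0.000802 over all genes. None of the sympathoadrenal genes passed the filter on counts. Cells with NPY had a median of 5646 UMIs against 6382 without in E18-DZ. In the late libraries the order was the other way, with 5545 UMIs against 4822 without in E21-ZZ, and 6299 against 5479 in E21-DZ. At E28 it was 5321 against 4874 and 4012 against 3836.

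**Figure D2:**
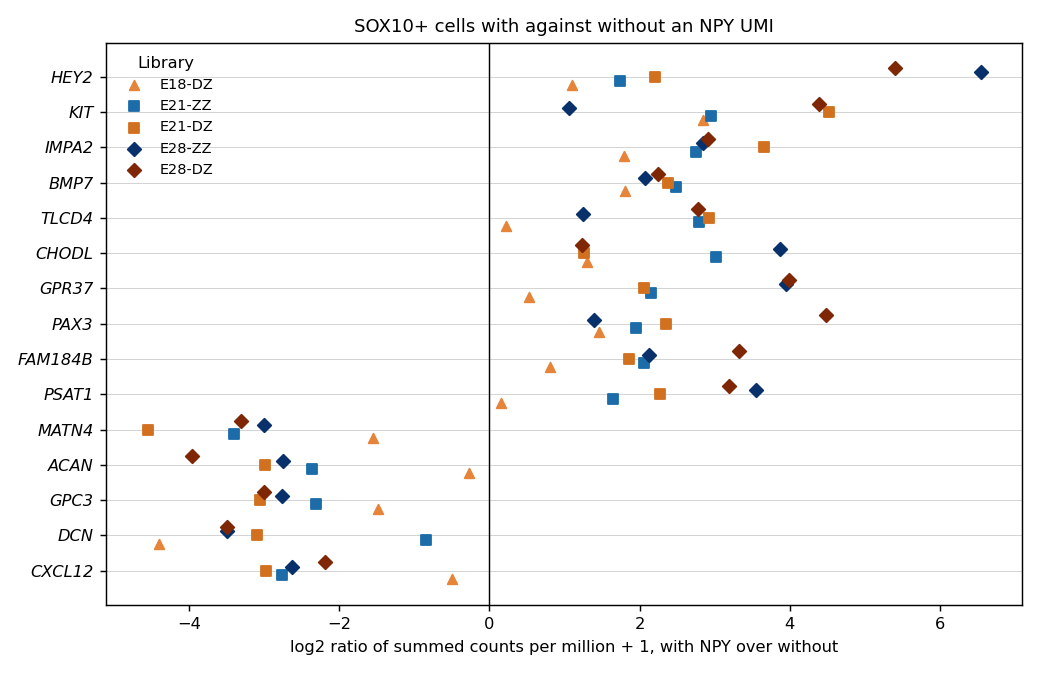
Log2 ratio of summed CPM plus 1 in SOX10+ cells with an NPY UMI over those without, 1 point per library (5 libraries), for the 10 genes with the largest rise and the 5 with the largest fall. All points of BMP7 lie near 2, whereas HEY2 spreads widely and E18-DZ lies closest to 0 for most genes.

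NPY was not restricted to SOX10+ cells at E21. Cells with at least 5 NPY UMIs numbered 18 and 46 at E16, 39 and 129 at E18, 690 and 381 at E21, then 76 and 130 at E28. SOX10+ cells made up 19.4% of the 690 in E21-ZZ and 93 of the 381 in E21-DZ, but 38 of 76 and 85 of 130 at E28. Before E21 they made up 0, 1, 0 and 2 cells. Most of the remaining E21 cells met no gate (312 in ZZ, 146 in DZ) or the sclerotome and cartilage gate (126 and 63).

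Sclerotome and cartilage, muscle and ungated cells carried NPY chiefly at E21. In ungated cells the level was 19.6 and 28.7 CPM at E16, 15.7 and 58.5 at E18, 344 and 127 at E21, then 28.5 and 58.5 at E28. Sclerotome and cartilage cells were at 42.6 and 12.7 CPM at E16, 11.4 and 38.8 at E18, 242 and 106 at E21, then 12.3 and 20.8 at E28. Muscle cells were at 21.5 and 55.5 CPM at E18, 195 and 239 at E21, then 34.7 and 19.5 at E28. In these 3 gates both E21 libraries lay above every other library, whereas SOX10+ cells were still at 510 and 1189 CPM at E28. Neurons, in which the peptide is classically made, held 14.4 to 64.5 CPM, and dermomyotome cells 6.48 to 175 CPM. In the dermomyotome E21-ZZ was highest, but E21-DZ (62.8 CPM) lay below E18-DZ (107 CPM). By mean over the 6 libraries of E18 to E28, in which each of these gates had at least 20 cells, SOX10+ cells (511 ± 453 CPM, SD, n = 6) came first, followed by ungated (105 ± 123), muscle (94.1 ± 96.9), dermomyotome (73.7 ± 62.2) and sclerotome and cartilage cells (71.8 ± 90.6). This order pools stages and rests on the late SOX10+ values the gene was chosen by. At E18 SOX10+ cells, at 2.21 and 11.3 CPM, were the lowest of the 5 gates in both breeds. The neighbours after the first lay within their spread, as did SOX10+ cells over all stages.

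**Figure D3:**
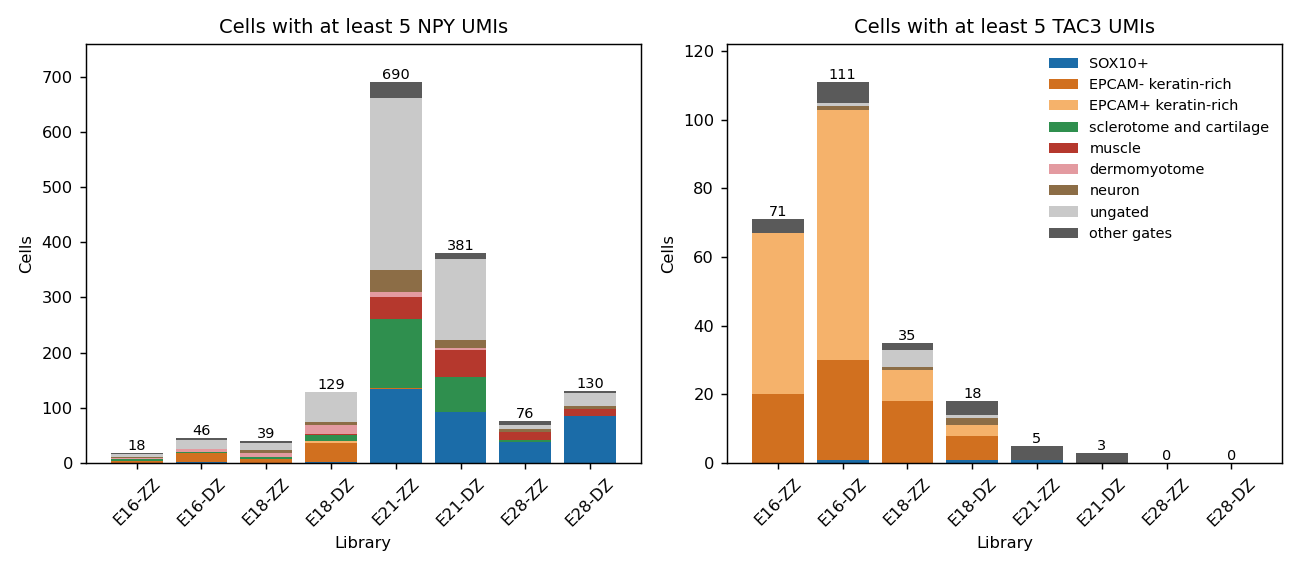
Number of cells with at least 5 UMIs of NPY (left) or TAC3 (right) in each library, stacked by gate, with the total above each bar. NPY peaks at 690 cells in E21-ZZ, over many gates, while TAC3 peaks at 111 cells in E16-DZ, nearly all in the keratin-rich gates.

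Ungated cells with NPY were compared with ungated cells without it in all 8 libraries, a comparison added after the values had been seen. The share with NPY was 2.40% to 3.47% at E16, E28 and in E18-ZZ, and 6.48% in E18-DZ, 20.6% in E21-ZZ and 12.3% in E21-DZ. In the first 5 of these 8 libraries it lay within the erythroid range of 0% to 4.55%, which pools all 8 libraries. With cells thinned as above, no erythroid cell of any library held NPY. The ungated shares of those 5 libraries were then higher, at 2.155% and 2.14% at E16, 1.48% in E18-ZZ and 2.04% and 2.98% at E28. Each lay below the upper confidence limit of the erythroid share in its library, so each gap was within counting error. The level in those 5 libraries was above that of erythroid cells, at 15.7 to 58.5 CPM against at most 4.13 CPM. Of 10448 genes, 191 (1.83%) differed, 78 higher (0.747%) and 113 lower (1.08%), and 61 moved the same way in every library. DESeq2 called 99. The largest rises included NPR3, a natriuretic peptide clearance receptor (log2 difference 1.61), EYA2, a transcriptional cofactor of homeobox proteins (1.57, adjusted p = 0.00037), and NRP2, a semaphorin and VEGF receptor. NRP2 was higher with NPY in each library, at 97.6 against 40.4 CPM in E16-ZZ, 148 against 34.2 in E18-ZZ, 62.3 against 31.3 in E21-ZZ and 103 against 39.1 in E28-ZZ (1.33 ± 0.12 SE, adjusted p = 4.84e-05). The largest falls were the globin gene HBM, FOXA2, WT1, FZD5 and CXCL14. Of 8 tested granule genes, CHGB (-2.07) and SCG3 (-1.95) fell and none rose. They moved this way in 7 and 6 of 8 libraries. With 1 library left out at a time, the calls were kept in 6 and 5 of 8 cases, with CHGB at -2.43 to -0.94. Leaving out E21-DZ gave 71 calls, E21-ZZ 79, E18-DZ 101 and E28-DZ 411.

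In EPCAM- keratin-rich cells NPY was carried by few cells and differed between the libraries of the 2 breeds. The level was 3.51 CPM in E16-ZZ and 52.1 in E16-DZ, 10.7 in E18-ZZ and 169 in E18-DZ, and 54.6 in E21-ZZ and 3.55 in E21-DZ. DZ was higher at E16 and E18 and lower at E21. A single cell held 404 of the 1008 UMIs (40.1%) in E16-DZ, 62 of 160 (38.8%) in E18-ZZ and 229 of 1734 (13.2%) in E18-DZ. The E28 libraries had 15 and 4 such cells with no NPY.

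Breed differences were tested because they do not use the stage change. In SOX10+ cells, with stage as a covariate, 2 of 8801 genes (0.0227%) differed, 1 higher (0.0114%) and 1 lower (0.0114%) in DZ, and DESeq2 also called 1 in each direction. NPY was higher in DZ in all 4 stages (log2 difference 0.81 ± 0.21 SE, mean 478 against 290 CPM, unadjusted p = 0.00123, adjusted p = 0.392 by edgeR's quasi-likelihood test), which does not pass. Without the filter on low counts the adjusted p was 0.000229, and without either E21 library, so that this stage dropped out, it was 0.0264. TAC3 in these cells differed by 0.21 ± 0.47 SE (adjusted p = 0.965), a value that turned to -0.09 with DESeq2.

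In EPCAM- keratin-rich cells 0 of 12086 genes (0%) differed between the breeds in the 6 libraries of E16, E18 and E21 by edgeR's quasi-likelihood test, 335 at an unadjusted p under 0.05 and 1 with DESeq2. The count was 71 without either E16 library, 45 without either E18 library and 32 without the filter on low counts. NPY differed by 3.25 ± 0.80 SE on the log2 scale (75.0 CPM in DZ against 22.9 in ZZ, unadjusted p = 0.00316, adjusted p = 1.0), in 2 of 3 stages. Leaving out a library also dropped the other of its stage. The adjusted p was 9.54e-11 without either E16 library and 0.00325 without either E21 library, and it missed the threshold without either E18 library. In the fit without E16 the 2 remaining stages went opposite ways, with 10.7 CPM in ZZ and 169 in DZ at E18 and 54.6 and 3.55 at E21. With the highest NPY cell of each library left out the adjusted p was 0.448. TAC3 differed by 0.26 ± 0.27 SE (adjusted p = 1.0).

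TAC3 was highest in keratin-rich cells of the earliest stages. The EPCAM- keratin-rich gate held 2232 and 3566 cells at E16, 2218 and 1640 cells at E18, 76 and 81 cells at E21 and 15 and 4 cells at E28. The sums held 825 and 1532 TAC3 UMIs at E16 and 740 and 417 at E18, then 1 and 13 at E21. Both E28 sums held none. The level was 51.7 and 79.2 CPM at E16 and 49.7 and 40.7 at E18, with a mean of 55.3 ± 16.6 (SD, n = 4), and 2.60 and 23.1 CPM at E21. The 4 early libraries lay above both E21 libraries, the nearest pair being E18-DZ and E21-DZ. E21 was 1.76-fold below E18 in DZ, from 13 UMIs, and in ZZ the single UMI allows 0.0658 to 14.5 CPM. These values chose the gene, and the gate itself nearly disappeared from the libraries over the same interval.

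Keratin-rich cells that also had EPCAM, an adhesion molecule of true epithelia, held TAC3 at a higher level. The 622 and 1016 cells of E16 were at 366 and 673 CPM and the 163 and 77 cells of E18 at 251 and 182 CPM, with a mean of 368 ± 217 (SD, n = 4). At a mitochondrial limit of 5% they were at 685, 1255, 434 and 278 CPM. Each early library lay above every EPCAM- library, which was not so with the erythroid gate that included globins, where E18-ZZ had 58.4 CPM from 6 UMIs in EPCAM+ cells and 80.9 CPM in EPCAM- cells. In E18-DZ 1 cell held 60.0% of the UMIs of EPCAM+ cells, and without it the level was 73.6 CPM, below that of EPCAM- cells in E16-DZ. In E21-ZZ the 30 such cells held no TAC3 UMI. The early shares of cells with a UMI overlapped between the 2 gates, at 12.7%, 16.4%, 14.7% and 9.09% in EPCAM+ cells and 13.0%, 11.4%, 18.6% and 15.6% in EPCAM- cells. At E21 1 of 76 EPCAM- cells in ZZ (1.32%) and 12 of 81 in DZ (14.8%) had TAC3, so the E21-DZ share was as large as the early ones. Thinned to 2000 UMIs, the EPCAM- shares were 6.36% and 5.22% at E16, 7.82% and 5.76% at E18 and 1.41% and 3.75% at E21. Cells with fewer UMIs, 77 and 539 at E16, 261 and 111 at E18 and 5 and 1 at E21, were left out of these shares. Erythroid cells had 3 of 52 (5.77%) and 9 of 126 (7.14%) at E16 and 0 of 121 and 0 of 86 at E18, with a median of 5256 to 13107 UMIs against 4744.5 to 8622 in the keratin-rich gates. At E16 the shares in the keratin-rich gates were above those of cells that should lack the gene, but of the same order.

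What set the gates apart was a minority of cells with very high counts. Cells with at least 5 TAC3 UMIs numbered 71 and 111 at E16, 35 and 18 at E18, 5 and 3 at E21, then 0 and 0 at E28. EPCAM+ keratin-rich cells made up 47, 73, 9 and 3 of the early ones and EPCAM- keratin-rich cells 20, 29, 18 and 7. They held 84.5% and 90.4% of all TAC3 UMIs of the library at E16 and 39.7% and 32.0% at E18. Single cells held 97.1% of the TAC3 UMIs in the neural tube gate of E16-ZZ and 94.2% in the neuron gate of E16-DZ. In endothelial cells of E16-DZ, at 146 CPM, the highest cell held 19.4%, and 6 cells held 1202 of the 1293 UMIs.

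Lateral plate cells, gated on at least 2 of GATA4, GATA6, WT1, TCF21 and HAND1, also carried TAC3. Keratin-rich cells that met this rule had joined an earlier gate. The 37 and 73 cells of E16 were at 17.8 and 15.6 CPM and the 98 and 93 cells of E18 at 68.0 and 47.4 CPM. A UMI was found in 8.11% and 9.59% of them at E16 and in 29.6% and 14.0% at E18, and 1 cell in each E18 library had at least 5. At E16 they lay below the EPCAM- keratin-rich cells and at E18 above them, in E18-DZ by less than the counting error. Thinned to 2000 UMIs, the E18 shares were 16.5% and 9.09%, against 7.82% and 5.76% in EPCAM- keratin-rich cells.

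**Figure D4:**
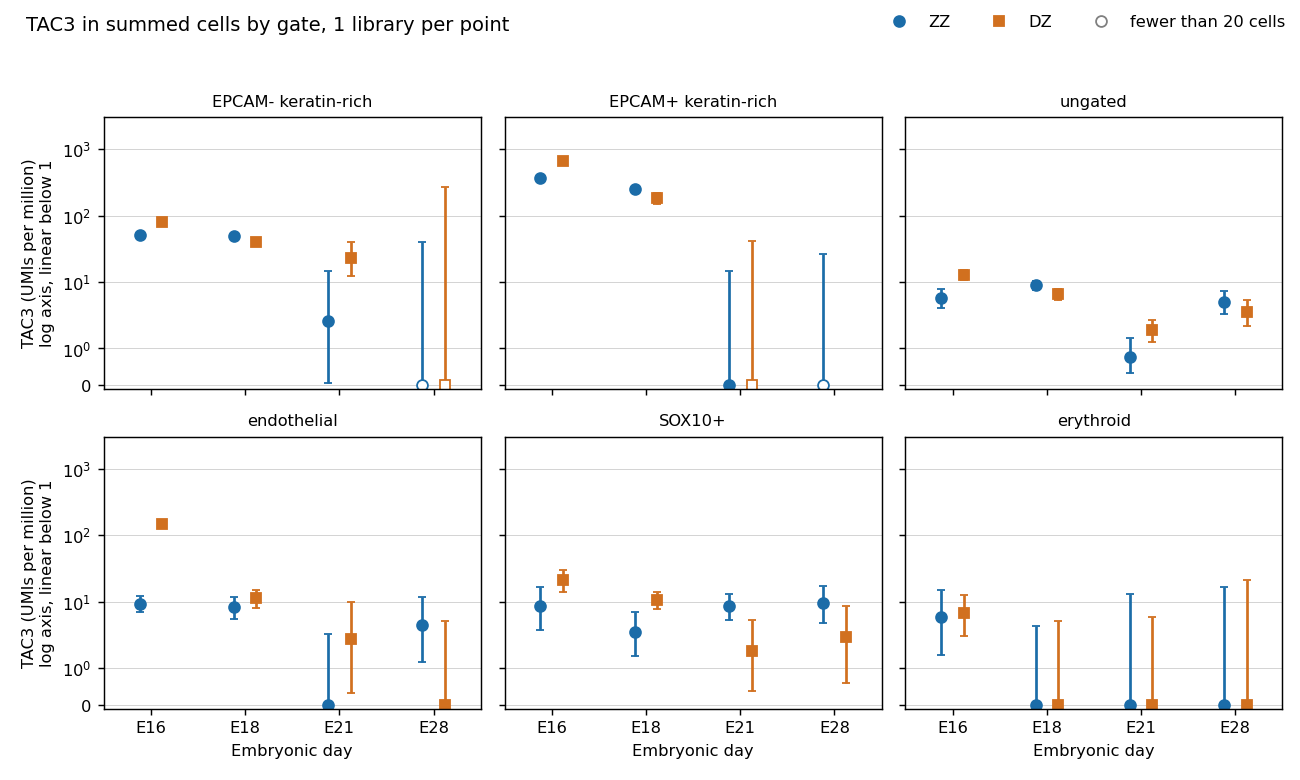
TAC3 level (CPM, log axis that is linear below 1) against embryonic day in 6 gates, 1 point per library, ZZ as circles and DZ as squares, with exact 95% Poisson intervals and open symbols for fewer than 20 cells. The keratin-rich gates are higher at E16 and E18 than at E21, with EPCAM+ cells between 182 and 673 in the 4 early libraries and EPCAM- cells between 40.7 and 79.2.

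The EPCAM- keratin-rich gate was mixed in other respects. The rule of a gate later in the order was also met by 1104 of 2232 and 1229 of 3566 of its cells at E16. At E18 such cells numbered 937 of 2218 and 763 of 1640, so membership depended on gate order. HAND1 or HAND2, factors of lateral and extraembryonic mesoderm, were detected in 64.3% and 53.0% of the gate's cells at E16, 45.2% and 47.1% at E18 and 17.1% and 28.4% at E21. Of the HAND-positive cells, 214 of 1435 and 296 of 1890 had TAC3 at E16, and 306 of 1003 and 204 of 772 at E18. Without HAND it was 76 of 797, 110 of 1676, 106 of 1215 and 52 of 868. The share with TAC3 was higher beside HAND in each of these 4 libraries, but these shares are not corrected for depth. In E16-ZZ the 1435 HAND-positive of 2232 cells held 12012664 of the gate's 15971614 UMIs. As CPM, TAC3 was at 54.4 and 102.6 in HAND-positive cells at E16 and 70.1 and 62.5 at E18. The whole gate was at 51.7 and 79.2 CPM at E16 and 49.7 and 40.7 at E18.

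Few other genes of the gate passed the test between the late and early libraries, in which E21 alone had the 20 cells needed at the late stages. Of 12564 genes, 34 (0.271%) differed, 20 higher (0.159%) and 14 lower (0.111%). HAND1 fell, from 282 to 48.8 CPM (log2 change -2.63 ± 0.23 SE, adjusted p = 0.00969), and was the only gene of the lists to pass. Without E21-ZZ no gene passed. DESeq2 called 360.

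Cells of the EPCAM- keratin-rich gate with a UMI of TAC3 were next compared with those without, in the 4 libraries of E16 and E18. With the library as a block, 366 of 10982 genes (3.33%) differed, 269 higher (2.45%) and 97 lower (0.883%), of which 343 moved the same way in all 4 libraries. CST6, a secreted cystatin of epidermis and other epithelia, was at 65.7 CPM with and 3.31 CPM without TAC3 in E16-ZZ, 61.4 against 2.92 CPM in E16-DZ, and 6.25 against 4.90 CPM and 6.07 against 1.85 CPM at E18 (log2 difference 3.26, adjusted p = 0.00279). The difference was in the same direction in each library and far larger at E16. At E16 the share of the gate's cells with TAC3 was of the same order as that of erythroid cells, as given above. There 20 and 29 cells with at least 5 UMIs held 464 of the 825 and 1059 of the 1532 TAC3 UMIs of the gate. Their part in the CST6 difference was not tested. TLX1, a homeobox factor, was at 1.95 against 0.287 CPM and 7.04 against 2.50 CPM at E16, and 8.69 against 2.23 CPM and 23.8 against 4.07 CPM at E18 (2.11, adjusted p = 0.000475). CLVS2, GABRP, KAZALD1, CYP2B22, MFAP4, IL10RA, LRATD1 and TM4SF1 were the other 8 of the 10 largest rises. The largest falls included NTN5, the dorsal and muscle progenitor gene PAX3, ZIC2 and the metallothionein MT3. With 1 library left out at a time, PAX3 kept its call in 3 of 4 cases, KAZALD1 in 2, and CYP2B22 and IL10RA in 1. CLVS2 and MT3 kept theirs in 1 of 3. NTN5 was at 4.67, 5.96, 31.8 and 39.2 CPM without TAC3 and 1.95, 1.56, 0.815 and 0.467 with it, in the order above. Leaving out E18-ZZ gave 132 calls, E18-DZ 233 and E16-DZ 239.

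NPY itself was lower in cells with TAC3. The EPCAM- keratin-rich cells with TAC3 held 20 NPY UMIs over the 4 libraries (1.92 CPM) and those without held 2938 (58.7 CPM), with a log2 difference of -4.92 ± 0.55 SE and an adjusted p of 0.000322. The direction was seen in 3 of 4 libraries, since in E16-ZZ 11 UMIs in 290 cells stood against 45 in 1942. Few cells carried the NPY UMIs without TAC3, as given above.

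Over all genes tested, 2.45% were higher with TAC3. On the lists, HAND1 rose with TAC3 (log2 difference 0.80 ± 0.05 SE, adjusted p = 7.18e-06), as did KRT7 (1.48). GATA6 (0.71) and BMP4 (0.70) were the 2 of 6 tested mesothelial and lateral plate genes that rose, WNT6 (1.39) and CLDN6 (0.32) the 2 of 3 surface ectoderm genes, and the peptide genes TRH (1.52) and AVP (0.92) 2 of 7 other neuropeptides. With 1 library left out at a time, HAND1, GATA6, BMP4 and WNT6 passed in each of 4 cases, KRT7 in 2, TRH in 1 and CLDN6 in none, and AVP passed in 1 of 2. All 7 tested granule genes missed the threshold. Cells with TAC3 were deeper, with a median of 6645.5 against 6026 UMIs and 5537.5 against 4620 UMIs at E16, and 8147 against 5967 UMIs and 6783 against 5111.5 UMIs at E18. After thinning to 2000 UMIs 62 genes differed.

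Keratin-rich cells with at least 5 TAC3 UMIs were then set against keratin-rich cells with none, over both EPCAM gates, in the 3 libraries with enough cells (67 cells in E16-ZZ, 102 in E16-DZ and 27 in E18-ZZ). This comparison was added after the values had been seen. Of 11307 genes, 1350 (11.9%) differed, 843 higher (7.46%) and 507 lower (4.48%), and 1245 moved the same way in all 3. DESeq2 called 788. Leaving out E16-DZ gave 478 calls, E16-ZZ 653 and E18-ZZ 2834. Since most of the high cells had EPCAM, the comparison also sets EPCAM+ against EPCAM- cells, and EPCAM itself was 218 against 81.8 CPM.

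The sums of cells with high TAC3 had a set of strongly raised genes. How many of the cells carried them together was not measured. VTCN1, a B7 family immune inhibitor found in amnion and trophoblast, was at 236 CPM in high cells and 0.207 CPM in cells without TAC3 in E16-ZZ, 381 against 0.369 CPM in E16-DZ and 123 against 0.644 CPM in E18-ZZ (log2 difference 9.57 ± 0.37 SE, adjusted p = 7.73e-12). GABRP, a GABA receptor subunit of epithelia, was at 461 and 3.93 CPM, 900 and 3.12, and 196 and 4.91 in the same order (7.09, adjusted p = 1.29e-09). CST6 was at 1333 and 4.56, 1130 and 6.48, and 395 and 5.63 CPM (7.50, adjusted p = 4.16e-11). For all 3 genes no high value overlapped a value without TAC3. CCN3 (8.49), CLVS2 (7.77), LAMA3 (6.46), SLC7A4 (5.65), SPP1, the osteopontin gene (5.56), SLC39A2 (5.50) and S100A6 (5.31) were the other 7 of the 10 largest rises. LAMA3 rested on 12 UMIs in high cells and 5 in cells without TAC3, and SLC39A2 on 22 and 19. With 1 library left out at a time, LAMA3 had enough counts for a test in 1 case only. CST6, CLVS2 and GABRP were thus among the largest rises in both TAC3 comparisons, which share cells.

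Several lists moved with high TAC3, against 7.46% of all genes higher and 4.48% lower. Of 7 tested genes of the list of simple keratins and HAND factors, 6 rose, among them KRT7 (871 against 42.4 CPM, log2 difference 4.58), TFAP2A (68.3 against 6.70, 3.35), TFAP2C (3.08) and HAND1 (601 against 185, 1.61). The list's median was 2.14 against -0.05 over all genes. Of 6 surface ectoderm genes, 5 rose, namely WNT6 (382 against 14.9 CPM), CDH1 (67.6 against 10.4), CLDN6 (740 against 146), EPCAM and KRT14. EPCAM is itself a gate gene that most high cells had, so its rise adds nothing to this count. Of 6 tested trophoblast and amnion genes, VTCN1, GABRP and HSD17B1, an estrogen-making enzyme (8.61 against 2.21 CPM), rose. Processing genes rose here in part, with FURIN, a general proprotein convertase (43.0 against 19.4 CPM, 1.40), SCG5 (0.96) and PCSK1N (0.81) 3 of 6 tested. Among 8 other neuropeptides, ADCYAP1 (3.42), AVP (74.4 against 10.7 CPM, 3.06) and ADM (66.4 against 13.6, 2.65) rose and NPPB (-2.12) fell. With 1 library left out at a time, HSD17B1 and PCSK1N kept the call in 1 of 3 cases. TFAP2C, SCG5, ADCYAP1 and NPPB kept it in 2 of 3, with NPPB at -3.79 to -0.46, and the other genes named here in each case.

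The 5 genes with the largest falls in high-TAC3 cells had no UMI there. NPY had 0 UMIs in the 196 high cells and was at 25.0 CPM in cells without TAC3. Its UMIs came from few of the latter, 24 of 2485 cells in E16-ZZ, 96 of 4009 in E16-DZ and 27 of 1945 in E18-ZZ, so no bound on the fold is given. Taking 3 counts over the 3 libraries as the floor (1.84 CPM), COL8A1, HLX, VCAM1 and AQP3 were at least 5.53-, 5.55-, 5.14- and 4.30-fold lower. With 1 library left out at a time, HLX kept the call in 3 of 3 cases. NPY, COL8A1 and AQP3 kept it in 2 of 3 and VCAM1 in 1 of 2.

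**Figure D5:**
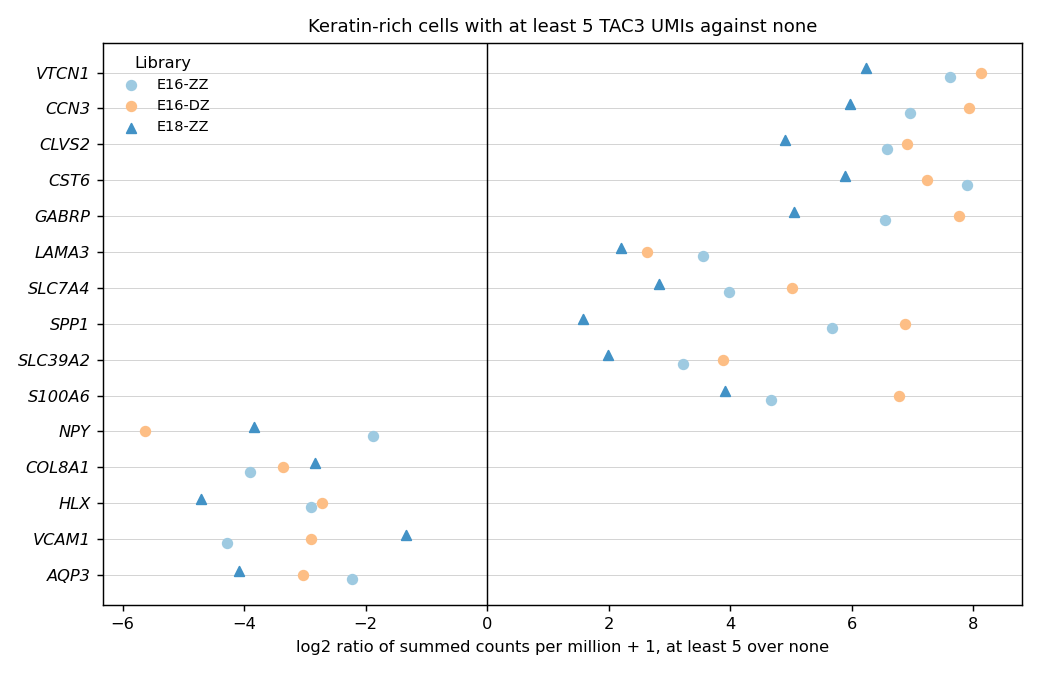
Log2 ratio of summed CPM plus 1 in keratin-rich cells with at least 5 TAC3 UMIs over those with none, 1 point per library (3 libraries), for the 10 genes with the largest rise and the 5 with the largest fall. VTCN1, CCN3, CLVS2, CST6 and GABRP lie highest, the E18-ZZ point lowest among the 3 for each of them.

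Receptors for both peptides were sparse. NPY1R had 23 to 427 UMIs per library, most at E28 (388 in ZZ and 427 in DZ), and its highest summed levels were in fibroblasts (10.4 CPM) and neurons (6.94 CPM). The levels by gate in this paragraph pool stages, so gate and stage cannot be told apart. Over all cells NPY1R was at 0.577 and 0.522 CPM at E16 and 9.02 and 10.1 at E28. Of the 10680 fibroblast cells, 3933 and 3713 came from E28. NPY2R had 0 to 11 UMIs per library and NPY5R 0 to 11. TACR3, the neurokinin B receptor, had 91 and 201 UMIs at E16 and 20 to 80 later, highest in endothelial cells (14.2 CPM). TACR1, the substance P receptor, had 67 and 137 at E16 and 5 to 18 later, with its highest level in EPCAM+ keratin-rich cells (7.46 CPM). The sister tachykinin gene TAC1 had 17 to 51 UMIs per library up to E21 and 245 and 539 at E28, with 313 in neurons (11.4 CPM), 262 in fibroblasts (6.23 CPM) and 250 in ungated cells (2.65 CPM). KISS1, which is co-expressed with TAC3 in the hypothalamus, had 7 to 64 UMIs.

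Both NPY and TAC3 were detected in 3 to 29 cells per library. In E16-DZ, with 29 such cells, 307 of 9506 cells had NPY and 885 had TAC3. Only 1 cell, in E21-ZZ, had at least 5 UMIs of each. Over the 98 sums of gate and library with at least 20 cells, the genes most like NPY among 8024 genes with a mean of at least 10 CPM were PRSS12 (Pearson r = 0.686), PCP4 (0.645), LRIG3 (0.616), SLITRK6 (0.615) and GAREM1 (0.614). For TAC3 they were HAND1 (0.782), HAND2 (0.701), KRT18 (0.681), GATA3 (0.671) and a gene without a symbol, ENSSSCG00000002476 (0.661). The sums share libraries and differ in depth, so these values describe likeness over the gates and no p is given. KRT18 and HAND1 are also gate markers, and TAC3 was chosen for its change in keratin-rich cells. Their likeness to TAC3 is thus partly built in.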

How the data were processed

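Single-cell RNA-seq (10x 3' kit, version 3) was made from 8 pools of embryos. The deposited UMI counts per gene and barcode were produced by the authors with Cell Ranger on Sscrofa11.1 with Ensembl 98 genes per the methods. The headers of the count matrices give version 3.1.0 for the E16 libraries and 3.0.2 for the other 6. The version goes with stage E16.

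A barcode was kept with at least 200 genes, at most 30000 UMIs and a mitochondrial share of at most 10%, and doublets were then removed by Scrublet score (scanpy 1.11.5) at 0.8% per 1000 barcodes, which left 74147 of 90688. Cells joined the first of 15 gates whose markers were met, with NPY and TAC3 in none. SOX10+ needed 1 UMI of SOX10, and keratin-rich cells needed KRT8 and KRT18 and together 10 UMIs per 10000. The globins HBZ and HBE1 were dropped from the erythroid markers after the data were seen, because they were detected in up to 90.5% and 98.6% of cells of a library. UMIs were summed per gate and library (at least 20 cells) and tested with edgeR 4.0.16 (TMM, filterByExpr, quasi-likelihood test, Benjamini-Hochberg adjustment over all genes tested, threshold 0.05), with DESeq2 1.42.0 as an alternative and R 4.3.3. The fits were tested on simulated data.

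The members and the gene lists were chosen with earlier results of these data known. Named genes were the list members past the test, up to 6 per list by size, the 5 genes most like each member, and the 10 largest rises and 5 largest falls with the same direction in every library. The depth limits values of few counts, and 0 of a gene allows up to 3 counts. PYY, NPY4R and NPY6R were not analysed here. Results for some genes, and for the cells gated on 1 of them, are not reported here. Alternatives were the count filter, DESeq2, doublets kept, a mitochondrial limit of 5%, other gate limits, thinning to 2000 UMIs and leaving out each library. Cells with fewer than 2000 UMIs were left out of all thinned values.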

Additional observations from a re-analysis of the deposited data

Results flagged for a closer look

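In EPCAM- keratin-rich cells at E21 and E28, TAC3 in E21-DZ (23.1 CPM) stood apart from the other 3 libraries, with a gap of 0.887 of the group's range, past Dixon's critical value for 4 libraries. In the same cells NPY in E21-ZZ (54.6 CPM) stood apart by 0.935 of the range. Both groups include the E28 libraries with 15 and 4 cells, and chance alone sets about 1 in 20 groups apart this far. The TAC3 values are also among those the gene was chosen by. Both E28 sums held 0 TAC3 UMIs and E21-ZZ held 1, so no conclusion is drawn from the gap.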

How the results depend on the processing

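The fits were paired by stage between the breeds and by library between cells with and without a gene, and the labels carry no replicate numbers for any other pairing. The cause of each move below was not tested. Counts of genes called are given with the value of the report first. Without the filter on low counts the breed count in SOX10+ cells went from 2 to 60, the breed count in EPCAM- keratin-rich cells from 0 to 32, their stage count from 34 to 385, the NPY comparison in SOX10+ cells from 335 to 793, the TAC3 comparison from 366 to 822 and the NPY comparison in ungated cells from 191 to 397. With DESeq2 the keratin-rich breed and stage counts were 1 and 360, the NPY comparison 172, the TAC3 comparison 199, the high-TAC3 comparison 788 (from 1350) and the ungated one 99. With a mitochondrial limit of 5% they were 0 and 820 (from 2423) for breed and stage in SOX10+ cells, 1 and 21 in keratin-rich cells, 209 for NPY, 2035 for high TAC3 and 89 for ungated cells. With doublets kept the SOX10+ breed count was 4 and the keratin-rich stage count 80. With embryonic day as a number the stage counts were 1575 and 783. Other gate limits gave 601 for NPY with at least 2 SOX10 UMIs, 272 for the keratin-rich stage count at 5 keratin UMIs per 10000, 233 for TAC3 at 20 per 10000, and 0 and 74 for these in cells with HAND1 or HAND2. Thinning gave 62 for TAC3. Chosen after seeing the data, SOX10+ cells meeting no other gate gave 1 for breed and 503 for NPY, and the erythroid gate with globins gave 69 for the keratin-rich stage count and 204 for TAC3.

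Leaving out 1 library at a time gave 0 to 6 and 1753 to 2171 genes for breed and stage in SOX10+ cells, 1 to 71 and 0 to 166 in keratin-rich cells, 128 to 521 for NPY, 132 to 311 for TAC3, 478 to 2834 for high TAC3 and 71 to 411 for ungated cells. The DZ minus ZZ difference was 0.56 to 1.27 for NPY and -0.43 to 0.75 for TAC3 in SOX10+ cells, and 2.26 to 3.90 and -0.03 to 0.74 in keratin-rich cells. NPY passed the threshold without the count filter in SOX10+ (0.81) and keratin-rich cells (3.24), and in the latter at the 5% mitochondrial limit (3.95). TAC3 in SOX10+ cells turned from 0.21 to -0.09 with DESeq2 and -0.43 at the 5% limit.

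The mean TAC3 level moved from 55.3 to 72.4 CPM (E16 and E18) in EPCAM- keratin-rich cells with HAND1 or HAND2, which at E21 were at 13.3 and 33.6 CPM against 2.60 and 23.1 CPM in all cells of the gate and were missing at E28. It moved in EPCAM+ cells from 368 to 663 CPM at the 5% limit (E16 and E18) and from 0 to 3.39 CPM at 5 keratin UMIs per 10000 (later stages). For the 125 values of single genes outside the breed comparisons, 1472 of 1663 settings kept the direction and the call, 191 kept the direction but missed the threshold and 0 reversed. These genes had been picked for passing the threshold, and the largest rises and falls also for the same direction in every library. A reversal was thus unlikely by selection, and its absence says little about robustness. The fits left out sums of fewer than 20 cells, as at E28 for keratin-rich cells, but the levels in this paragraph did not. At E21 the 13.3 CPM came from 1 TAC3 UMI in 13 cells and the 33.6 CPM from 6 UMIs in 23 cells. The mean of 3.39 CPM came from 1 UMI in E21-DZ. Single libraries per group and few late keratin-rich cells set the limit of every stage value.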
